A study of Mus musculus with 12 samples.

Results

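The mitochondrial respiratory chain and ATP synthase are built from subunits encoded partly in the nucleus. Nuclear-encoded oxidative phosphorylation genes were taken here as the protein-coding genes of the RefSeq GRCm38.p6 table whose symbols begin with Nduf (complex I, without the Ndufaf assembly factors), are Sdha to Sdhd (complex II), or begin with Uqcr (complex III), Cox4 to Cox8 (complex IV) or Atp5 (complex V). The rule found 88 genes among 21896 protein-coding genes: 41 for complex I, 4 for complex II, 8 for complex III, 18 for complex IV and 17 for complex V. In 35 of them at least 1 of 6 lists of m1A peaks had a summit inside the gene span, and in 53 none had.

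m1A is adenosine methylated at a ring nitrogen, found in transfer and ribosomal RNA and mapped in messenger RNA with antibodies. All mice were adult males with loxP sites at both Tet1 alleles (Tet1 fl/fl). The controls received AAV-EGFP in the caudate putamen (dorsal striatum) and are labelled Tet1 fl/fl. The knockout (KO) group received AAV-Cre-EGFP there and is labelled Tet1 delta/delta. TET1 is a dioxygenase whose usual substrate is methylated cytosine of DNA. Tissue was taken 2 weeks after injection, so both groups carried the floxed alleles, a virus and EGFP. The promoter driving Cre is not given in the sources used here, nor is the number of animals, so spread between the 3 libraries of a group may be technical. Each of the 6 pull-down libraries was called against its own input, and the question was whether m1A peaks in these genes differed between the genotypes.

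Complex I takes electrons from NADH and complex II from succinate. Complex III passes them through cytochrome c to complex IV, which reduces oxygen, and complex V uses the resulting proton gradient to make ATP. Neurons draw most of their ATP from this pathway, and its messenger RNAs are short, abundant and mostly expressed in every cell type. In whole tissue, fewer cells of a type and less RNA per cell cannot be told apart.

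A subset of members had m1A summits close to the annotated start of the gene, and the sequences just before such starts are shown for 5 of them. They are the 180 bases that end 1 base before the start, on the gene's own strand, from the RefSeq promoter table of GRCm38.p6. Cox6a1, Cox5b and Ndufb7 had summits downstream of these starts in both genotypes, Atp5d in the controls alone and Ndufs8 in KO libraries alone. Capitals mark a match to the palindromic consensus of NRF1, a transcription factor of nuclear genes for mitochondrial proteins. The stretches lie at chr5:115348959-115349138 (Cox6a1, minus strand), chr1:36691307-36691486 (Cox5b, plus), chr8:83566578-83566757 (Ndufb7, plus), chr10:80142095-80142274 (Atp5d, plus, the first of 2 annotated starts) and chr19:3912775-3912954 (Ndufs8, minus).
Cox6a1: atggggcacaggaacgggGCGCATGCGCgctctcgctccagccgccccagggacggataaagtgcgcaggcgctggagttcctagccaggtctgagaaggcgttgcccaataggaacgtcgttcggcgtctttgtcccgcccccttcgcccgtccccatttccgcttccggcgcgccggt
Cox5b: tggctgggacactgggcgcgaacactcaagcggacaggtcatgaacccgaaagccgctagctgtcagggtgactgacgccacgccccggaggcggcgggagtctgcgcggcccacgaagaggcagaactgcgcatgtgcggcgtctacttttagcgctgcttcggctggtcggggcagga
Ndufb7: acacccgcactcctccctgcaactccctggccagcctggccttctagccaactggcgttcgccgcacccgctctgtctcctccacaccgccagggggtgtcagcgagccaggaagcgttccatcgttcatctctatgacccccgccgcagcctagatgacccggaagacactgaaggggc
Atp5d: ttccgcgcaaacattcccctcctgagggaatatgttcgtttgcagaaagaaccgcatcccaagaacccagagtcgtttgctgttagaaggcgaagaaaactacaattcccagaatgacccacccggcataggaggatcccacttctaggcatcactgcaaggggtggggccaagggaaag
Ndufs8: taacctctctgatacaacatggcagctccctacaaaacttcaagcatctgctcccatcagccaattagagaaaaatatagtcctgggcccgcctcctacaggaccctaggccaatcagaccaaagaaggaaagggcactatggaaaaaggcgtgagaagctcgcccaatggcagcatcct

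The full promoter window of the table runs from 250 bases before a start to 50 after it and was matched for 71 of the 88 members and 17491 protein-coding genes. The NRF1 consensus, searched on both strands without mismatch, stood in the window of 5 members (7.04%) and of 1.47% of all genes. The YY1 consensus, searched the same way, stood in 4 members (5.63%) and in 1.06% of all genes. The core CCGGAAGT of ETS factors such as GABPA stood in 5 members (7.04%) and in 5.69% of all genes. Of the 29 matched members with a peak 2 held the NRF1 match, as did 3 of the 42 without a peak. These are matches of letters and describe the windows, not binding.

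The libraries differed in depth and in where their summits lay, which bears on every count below. After removal of duplicates where applied, controls 1, 2 and 3 held 459332, 1097292 and 864206 tags, and KO 1, 2 and 3 held 1235247, 2508102 and 1336328. Every KO library was thus deeper than every control, and the part of depth in the counts below was not tested. Control 1 was called with all duplicate tags kept, the other 5 with at most 1 tag per position. KO 2 had 6947 peaks, against 3004 to 3782 in the others, and only 11.5% of its summits in protein-coding genes lay within 500 bases after a start. That share was 16.6% in control 1 and 31.1% to 41.0% in the other 4. These 2 libraries therefore stand apart, and the main counts are given with them and without 1 or both of them. Of 16 markers of medium spiny neurons, the main striatal cell type, 13 had a peak, 4 of them (Ppp1r1b, Pde10a, Adcy5 and Gng7) in all libraries. Per library 4, 10 and 11 of these markers were called in controls and 5, 11 and 9 in KO.

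More member genes carried a peak in each KO library than in any control. Controls 1, 2 and 3 had 8, 11 and 13 members with a peak, and KO 1, 2 and 3 had 20, 22 and 16. The means were 10.7 ± 2.52 (SD, n = 3) in control and 19.3 ± 3.06 in KO, and the groups did not overlap. As a share of all protein-coding genes with a peak, members made up 0.369%, 0.472% and 0.633% in controls and 0.820%, 0.675% and 0.776% in KO, again without overlap. This share depended on the threshold: at a −log10 q of at least 5 it was 0.780%, 0.508% and 0.693% in controls and 0.855%, 0.685% and 0.778% in KO, which overlap, and the groups also overlapped when summits in more than 1 gene were left out. KO 3 and control 3 had nearly equal numbers of genes with a peak, 2061 and 2053, and differed by 16 to 13 members. Members were not alone in this: the 89 cytosolic ribosomal protein genes (2, 9 and 10 in controls, 17, 22 and 13 in KO) and the 40 proteasome genes (2, 3 and 3, then 4, 6 and 4) did not overlap either. No p is given for these sums, because the members were chosen with earlier results of these data known.

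**Figure D1:**
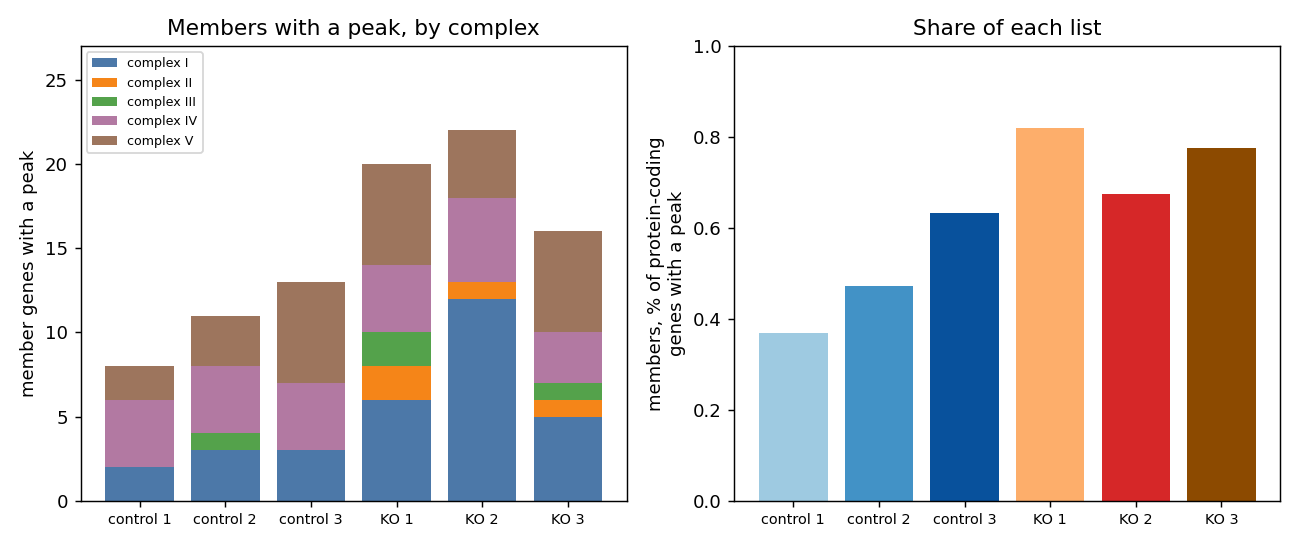
Left, number of member genes with a peak in each library (y axis), stacked by respiratory complex. Right, the same members as a percent of all protein-coding genes with a peak in that library. The 3 KO libraries have 16 to 22 members and the 3 controls 8 to 13; complex I accounts for 12 of the 22 in KO 2.

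The count was also taken without the libraries that stand apart and at equal list length. Without KO 2 the means were 10.7 and 18, and without control 1 and KO 2 they were 12 and 18, with no overlap in either case. All protein-coding genes with a peak had means of 2183 and 2249.5 without KO 2, and of 2191.5 and 2249.5 without both, which overlap. Mean shares of members among them were 0.492% and 0.798%, then 0.553% and 0.798%, without overlap. With every list cut to its 3004 strongest peaks, the means were 10.7 and 15.3, and KO 2, at 12 members, fell between control 2 (11) and control 3 (13). The counts thus overlapped. The share of members among protein-coding genes with a peak did not, at 0.386%, 0.526% and 0.633% in controls and 0.891%, 0.691% and 0.787% in KO.

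Gene by gene, 22 of the 35 members with a peak (62.9%) were called in more KO than control libraries and 3 (8.57%) in more control than KO libraries. Over all 5765 protein-coding genes with a peak these shares were 45.7% and 30.3%. Without KO 2, 18 of 28 members were called in a larger share of KO libraries and 6 in a larger share of control libraries, beside 42.3% and 46.2% of all genes. Without control 1 the members numbered 22 and 8 of 35, beside 53.2% and 31.7% of all genes. Without control 1 and KO 2 they numbered 14 and 5 of 27, beside 35.7% and 32.5% of all genes. Called in KO alone were 18 members (51.4%), beside 32.3% of all genes, and in control alone 2, Atp5d and Uqcr11, beside 21.5%. Without KO 2 these were 11 of 28 members in KO alone (39.3%, beside 19.5% of all genes) and 5 in control alone (17.9%, beside 36.6%). Without control 1 they were 19 of 35 in KO alone (54.3%, beside 44.5%) and 2 in control alone (5.71%, beside 11.3%). Without both libraries they were 11 of 27 (40.7%, beside 29.2%) and 4 (14.8%, beside 23.1%). Of the 18 called in KO alone among all 6 libraries, 4 (Ndufs5, Ndufs6, Cox6b1 and Atp5h) rested on 1 summit of KO 2 near the end of the gene. A list of peaks holds no counts outside them, so a missing peak does not show that m1A was absent.

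Detection was compared for all 5765 genes by an exact two-sided permutation test, which has 20 possible assignments of the libraries. Its smallest possible p is 0.1, reached by 147 genes, of which 3 were members: Sdha, Ndufv3 and Atp5d. No gene could therefore pass 0.05, with or without Benjamini-Hochberg adjustment, and none did. With same-numbered KO and control libraries as a block the smallest p was 0.25.

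**Figure D2:**
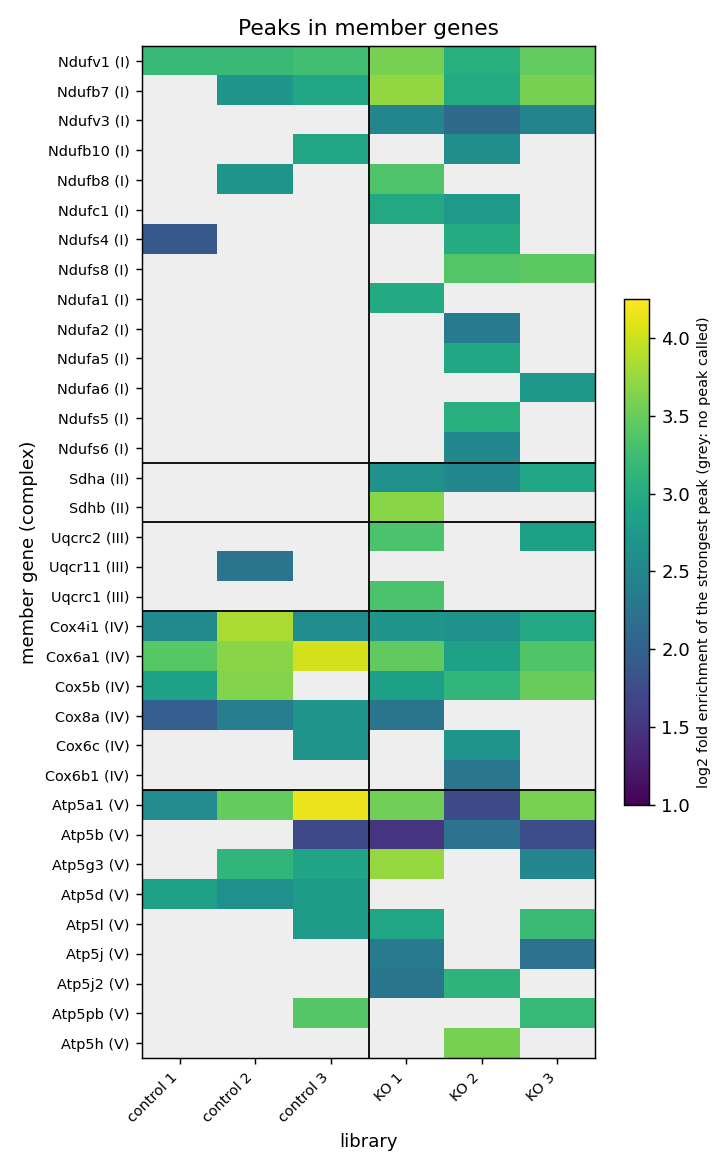
Each row is a member with a peak in at least 1 library, without 1 member that is not reported here, grouped by complex, and each column is a library. Colour gives the log2 fold enrichment of the strongest peak, and grey means that none was called. Cox4i1, Cox6a1, Ndufv1 and Atp5a1 are filled in all 6 columns, Sdha and Ndufv3 in the 3 KO columns alone and Atp5d in the 3 control columns alone.

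Complex I had the largest spread between the genotypes in number of members. Of its 41 genes 15 had a peak, 2, 3 and 3 in controls 1, 2 and 3 and 6, 12 and 5 in KO 1, 2 and 3. None of the 15 was called in more control than KO libraries, beside 30.3% of all genes with a peak. In more KO libraries 11 were called (73.3%, beside 45.7% of all genes). KO 2 contributed most, and without it the means were 2.67 ± 0.577 (SD, n = 3) in control and 5.50 ± 0.707 (n = 2) in KO.

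Ndufv1, the subunit that binds NADH and flavin, was the only complex I gene called in all 6 libraries. Its strongest peaks had fold enrichments over the local background, a ratio given by the authors' caller, of 9.10, 9.20 and 9.55 in controls 1, 2 and 3. In KO 1, 2 and 3 they were 12.0, 8.26 and 11.1, so the ranges overlapped. The gene spans 4007499 to 4012755 on chromosome 19 and held 3 sites, a site being the union of overlapping peaks. The middle one, 1535 to 1643 bases after the start, was called in all 6 libraries. A second, 2739 to 2754 bases after the start, was called in control 2 and all KO libraries (5.76 in control 2, 9.28, 8.26 and 11.1 in KO 1, 2 and 3). The last, 212 and 220 bases after the start, was called in control 2 and KO 3.

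Ndufb7, an accessory subunit of the membrane arm, had peaks in 5 libraries but not at 1 place. In controls 2 and 3 and KO 1 and 3 the summit lay 163 to 191 bases after the start, with fold enrichments of 6.45, 7.65, 13.2 and 12.0. In KO 2 it lay 806 bases from the gene's far end, with 8.01. Control 1 had none. Within the shared site both KO values were above both control values, but the fold belongs to lists called separately and was not tested.

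Ndufv3, an accessory subunit of the NADH-binding module, had a peak in each KO library and none in the controls, every time at a different place. The summit lay 1510 bases after the start in KO 1 (fold enrichment 5.64), 177 bases from the gene end in KO 2 (4.37) and 157 bases after the start in KO 3 (5.52). The gene-level call in all KO libraries thus came from 3 separate sites. All 3 peaks were of low coverage, with pileups of 14, 16 and 10 tags.

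Ndufs8, a core iron-sulfur subunit, was called at the same place in KO 2 and KO 3, 195 and 223 bases after the start, with fold enrichments of 10.4 and 10.8. Ndufc1, a small accessory subunit, had peaks in KO 1, 811 bases after the start (7.81), and in KO 2, 134 bases from the end (6.75). Other complex I members with a peak in more KO than control libraries were called in 1 library each. Among them Ndufa5, Ndufs5, Ndufs6 and Ndufa2 were called in KO 2, Ndufa1 in KO 1 and Ndufa6 in KO 3, with fold enrichments of 5.03 to 8.22. Ndufb8, Ndufb10 and Ndufs4 were called in 1 library of each genotype. Ndufb8 shared its site, 252 bases after the start in control 2 (6.47) and 234 in KO 1 (10.2). Ndufb10 had a start summit in control 3 (7.49) and an end summit in KO 2 (6.16). Ndufs4 was called deep in the gene, in control 1 on a pileup of 3 tags (3.76) and elsewhere in KO 2 (8.10). The remaining 26 complex I genes, among them the core subunits Ndufs1, Ndufs3, Ndufs7 and Ndufv2, had no peak in any list. Ndufa4, whose product is now assigned to complex IV, and its relative Ndufa4l2 were also without a peak.

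Complex II had a peak in 2 of its 4 genes, both called in KO libraries alone, as were 32.3% of all genes with a peak. Sdha, the flavoprotein that oxidises succinate, had peaks in all 3 KO libraries with fold enrichments of 6.25, 5.72 and 7.54 and in no control. The gene spans 74322255 to 74350240 on chromosome 13, and its summits fell at 4 sites. KO 1 and KO 3 shared the site 6743 and 6759 bases after the start (6.25 and 4.29). KO 3 had another 125 bases after the start (7.54), and KO 2 had 2 of its own deep in the gene, 11201 and 12716 bases after the start. Sdhb, the iron-sulfur subunit, was called in KO 1 alone, 210 bases after the start (12.8). Sdhc and Sdhd, the membrane anchors, had no peak.

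Of the 8 complex III genes 3 had a peak. Uqcrc2, a large core protein, was called in KO 1 and KO 3 with the summit at the same base, position 120635435 on chromosome 7, 246 bases inside the lower edge of its span, and fold enrichments of 10.0 and 7.17. Uqcrc1, the other core protein, was called in KO 1 alone, 231 bases from the gene end (10.1), and Uqcr11, a small subunit, in control 2 alone (4.74). The Rieske iron-sulfur protein gene Uqcrfs1 had none. Over the libraries complex III gave 0, 1 and 0 members in controls and 2, 0 and 1 in KO, which overlap.

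Complex IV did not differ in number. It had 4 members with a peak in each control and 4, 5 and 3 in KO 1, 2 and 3, means of 4 in both groups. Cox6a1, a small subunit in its ubiquitous isoform, had a strong site 164 to 229 bases after its start in all 6 libraries. The fold enrichments there were 10.6, 12.7 and 16.3 in controls and 10.9, 7.23 and 10.3 in KO, which overlap. The pileups at this site were 45, 72 and 66 tags in controls and 68, 64 and 68 in KO. Cox6a1 held another site 264 to 312 bases from the gene end in controls 2 and 3 and in KO 1 and 3.

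Cox4i1, the regulatory subunit of the ubiquitous isoform, carried 2 sites called in all 6 libraries. The gene spans 120668225 to 120674209 on chromosome 8. One site lay 136 to 210 bases inside the lower edge of the span, with fold enrichments of 5.59, 14.3 and 4.92 in controls and 5.33, 6.34 and 7.79 in KO. The other lay 1444 to 1480 bases inside the upper edge, with 5.84, 4.21 and 6.01 in controls and 6.27, 3.02 and 5.55 in KO. At both the groups overlapped. Another site, 1185 and 1192 bases inside the lower edge, was called in KO 1 and KO 3 alone (6.50 and 7.47).

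Cox5b, a zinc-binding subunit, was called in 5 libraries, without control 3. In controls 1 and 2 and KO 1 and 3 the summit lay 146 to 271 bases after the start (7.28, 12.6, 7.15 and 11.2), and in KO 2 it lay 167 bases from the end (8.78). The pseudogene Cox5b-ps also had peaks, in controls 2 and 3 and KO 1 and 2, so reads of the family may be shared between copies. Cox8a was called in more control than KO libraries, in all 3 controls and KO 1, with 3.93, 5.25, 6.49 and 4.80. Its start site, 212 and 217 bases after the start, was called in controls 2 and 3 and in no KO library. Its site near the end was called in controls 1 and 3 and KO 1. Cox6c had a peak in control 3 and KO 2 at opposite edges of the gene, and Cox6b1 in KO 2 alone, 168 bases from the end. The 7 genes for isoforms of muscle, testis or lung (Cox4i2, Cox6a2, Cox6b2, Cox7a1, Cox7b2, Cox8b and Cox8c, a group formed after their values were seen) had no peak.

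Complex V had 2, 3 and 6 members with a peak in controls and 6, 4 and 6 in KO, which overlap. Atp5a1, the alpha subunit of the F1 head, was called in all 6 libraries, yet no site of it was. Its strongest peaks had 5.93, 11.2 and 17.8 in controls and 11.7, 3.38 and 12.1 in KO. The strongest site, 367 to 406 bases inside the lower edge of its span, was called in controls 2 and 3 and KO 1 and 3 and was missing in control 1 and KO 2. These had their only peak in a site 4704 to 4977 bases inside that edge, shared with KO 1 and KO 3.

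Atp5b, the catalytic beta subunit, was called in control 3 and all KO libraries at low fold enrichment, 3.28 and then 2.8, 4.70 and 3.42. KO 1 and KO 3 shared a site with control 3 at 2168 to 2294 bases after the start, and KO 2 shared another with control 3 at 603 and 636 bases. Neither site was called in KO alone. Atp5g3 encodes the ring subunit c, as do Atp5g1 and Atp5g2, which had no peak. Its strongest site, 388 to 412 bases after an annotated start, was called in controls 2 and 3 (8.82 and 7.47) and in KO 1 and 3 (13.3 and 5.66), and not in control 1 or KO 2. A site 1953 and 1966 bases after that start was called in controls 2 and 3 alone (3.56 and 4.23).

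Atp5d, the delta subunit of the rotor stalk, went the other way, with peaks in all 3 controls and no KO library. The site lay 198 to 217 bases after the nearest annotated start, on chromosome 10 from 80142513 to 80142532 by summit, with fold enrichments of 7.27, 3.30 and 6.85 in controls 1, 2 and 3. It was the only one of 61 member sites called in all libraries of 1 genotype and none of the other. Controls 2 and 3 had another summit upstream of both annotated starts (6.19 and 5.75), inside the overlapping gene Cbarp, which could equally have given those reads.

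The other complex V members were Atp5j, Atp5j2, Atp5h, Atp5l and Atp5pb, all parts of the stalk or membrane sector. Atp5j, coupling factor 6, was called in KO 1 and KO 3 at a shared site 3579 and 3595 bases after a start (4.73 and 4.63), and again in KO 1 625 bases from the end (5.01). Atp5j2, subunit f, was called in KO 1 and KO 2 at different sites (4.81 and 8.66). Atp5h, subunit d, was called in KO 2 alone, 222 bases from the end (12.0). Atp5l, subunit g, had a start site in control 3, KO 1 and KO 3 (6.85, 7.56 and 9.30), and Atp5pb, subunit b, one in control 3 and KO 3 (10.5 and 9.07).

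Counting sites in place of genes changes what is shared by all KO libraries. The 35 members held 61 sites, of which 31 (50.8%) were called in 1 library. The same share over all regions was not computed. As genes, 12 members (34.3%) were called in 1 library, beside 42.3% of all genes with a peak. Called in all 6 were 4 sites (6.56%), 1 in Ndufv1, 1 in Cox6a1 and 2 in Cox4i1, beside 3.05% of 11832 regions in protein-coding genes. Called in all 3 KO and no control library were 0 member sites, beside 1.23% of regions, and in all 3 controls and no KO library 1 (1.64%), beside 0.685%. The corresponding counts of genes were 4 members in all 6 libraries (11.4%, beside 8.74% of genes), 2 in all 3 KO and no control (5.71%, beside 1.73%) and 1 in all 3 controls and no KO (2.86%, beside 0.815%). Sdha and Ndufv3 were thus called in every KO library as genes but at no common site. Without KO 2, 4 of 44 member sites (9.09%) were called in both remaining KO libraries and no control, beside 4.8% of 8029 regions: those of Uqcrc2, Sdha, Atp5j and the site of Cox4i1 1185 and 1192 bases inside its lower edge. In all 3 controls and neither of these KO libraries 1 of the 44 was called. Without control 1, 1 of 60 member sites was called in all KO and no control library, and 4 in both remaining controls and no KO library. Without control 1 and KO 2 these numbers were 5 and 4 of 43. Shares of all regions were not computed for these last counts.

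Summits could be placed relative to an annotated start for the 29 members with a peak whose strand the promoter table gives, and for 4584 (79.5%) of all genes with a peak. Distances are along the genome and include introns. A start summit lay from 50 bases before to 500 after a start, and an end summit within 500 bases of the end of the gene span. Member summits at a start numbered 40 in 17 genes and lay 125 to 412 bases after it, with a median of 211 bases. The median over 4413 start summits of all genes was also 211 bases. In controls 1, 2 and 3 start summits made up 50%, 53.3% and 53.3% of placed member summits, and in KO 1, 2 and 3 they made up 38.1%, 10.5% and 61.1%. KO 2 lay far below the rest, with 2 of 19.

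End summits showed the reverse. They made up 16.7%, 6.67% and 13.3% of placed member summits in controls and 14.3%, 47.4% and 5.56% in KO. KO 2 alone had 9 such summits, in Ndufb10, Ndufc1, Ndufs5, Ndufs6, Ndufv3, Cox5b, Cox6b1, Atp5h and Atp5j2, 134 to 224 bases from the gene end. The other 5 libraries had 1 to 3 each, 231 to 312 bases from it. Of these 9 genes 5 had a peak in another library, and 3 of those (Cox5b, Ndufb10 and Ndufv3) had it at the start. Among all protein-coding genes under 10 kb KO 2 also had the highest end share, 23.4% against 8.59% to 10.7%, and the lowest start share, 28.4% against 44.6% to 52.9%. Members are short, with a median span of 7.15 kb beside 17.1 kb for all protein-coding genes.

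**Figure D3:**
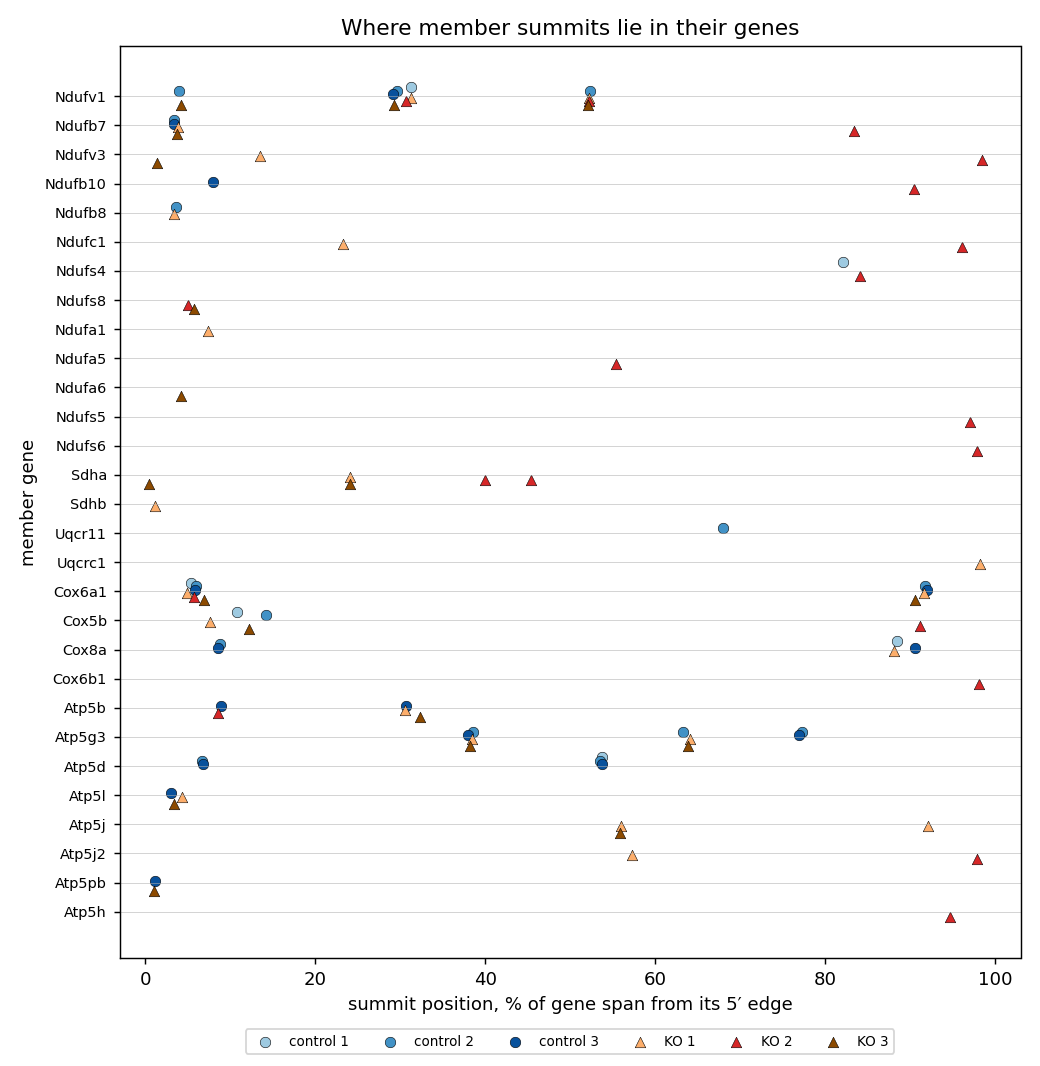
Position of every placed summit along its gene, from the 5′ edge of the span (0%) to the 3′ edge (100%), for the members whose strand is given. Circles are controls and triangles KO libraries. KO 2 (red) lies within 500 bases of the right edge in 9 genes, while most other libraries lie near the left edge or at shared inner sites.

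**Figure D4:**
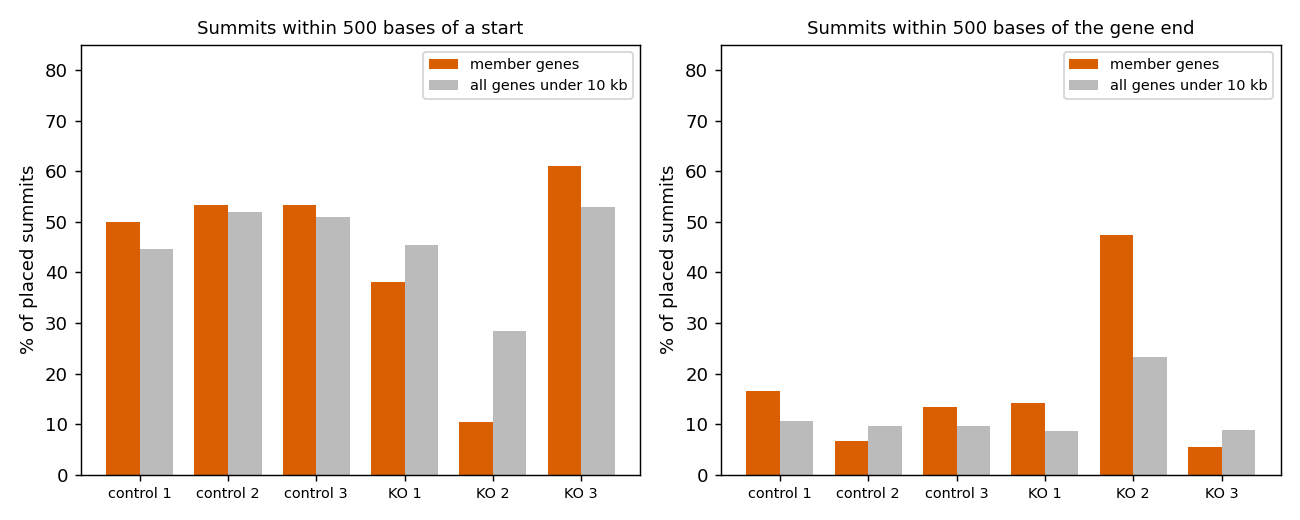
Percent of placed summits within 500 bases of a start (left) or of the gene end (right), in member genes (orange) and in all protein-coding genes under 10 kb (grey), by library. For members KO 2 has 10.5% at starts and 47.4% at ends; the other 5 libraries have 38.1% to 61.1% and 5.56% to 16.7%.

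Calls were also counted by where in the gene the summit lay, with no test of a difference between positions. At starts, members with a summit numbered 3, 8 and 8 in controls and 8, 2 and 11 in KO, means of 6.33 ± 2.89 (SD, n = 3) and 7 ± 4.58, which overlap. Without KO 2 the KO mean was 9.50, and KO 1 still equalled controls 2 and 3. Of the 17 members with a start summit, 7 were called there in more KO libraries (41.2%, beside 40.4% of 1915 genes) and 3 in more control libraries (17.6%, beside 40.3%). At gene ends, 10 of 12 members were called in more KO libraries (83.3%, beside 67.3% of 306 genes) and 1 in more control libraries (8.33%, beside 19.9%). Of the 12, 9 were called there in KO 2 alone, as were 46.7% of all genes with an end summit. Inner summits, placed but near neither edge, were found in 2, 4 and 4 members in controls and 8, 6 and 5 in KO, without overlap. As a share of placed member summits they made up 33.3%, 40% and 33.3% in controls and 47.6%, 42.1% and 33.3% in KO. Over all protein-coding genes the inner share was 81.7%, 57.4% and 55.3% in controls and 66.1%, 83.6% and 59.4% in KO. Both shares overlapped between the genotypes.

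Member peaks did not stand out by enrichment within their lists but had high coverage. The median fold enrichment of member peaks was 5.93, 6.19 and 6.49 in controls 1, 2 and 3, beside 4.65, 7.16 and 7.18 over all peaks of the list. In KO 1, 2 and 3 it was 6.63, 6.75 and 7.47, beside 7.16, 7.23 and 7.53. Median pileups were 20, 35 and 33 tags in controls and 29, 27 and 25 in KO, against list medians of 4, 19 and 18 and of 17, 17 and 19. The median member peak had more tags than the median peak in every library, and a lower fold enrichment in every library but control 1.

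Other genes of the pathway were read from lists built by name or function, to be set beside the 45.7% of all genes called in more KO and the 30.3% called in more control libraries. Of 48 assembly factors 18 had a peak, 7, 8 and 7 in controls and 10, 10 and 8 in KO, with 10 (55.6%) called in more KO and 4 (22.2%) in more control libraries. Ndufaf6 (13.3 to 35.4), Cox11, a copper chaperone for complex IV (13.6 to 25.4), and Atpaf1 (8.60 to 23.8) were called in all 6. Of 26 genes of the tricarboxylic acid cycle and pyruvate dehydrogenase 11 had a peak, 4, 3 and 4 in controls and 6, 3 and 8 in KO, with 7 (63.6%) in more KO and 3 (27.3%) in more control libraries. Idh3b was called in all 6, and Idh3a, another subunit of the same NAD-dependent dehydrogenase, in the 3 KO libraries alone (8.89 to 14.1). Of 20 regulators of mitochondrial biogenesis 9 had a peak, 3, 4 and 5 in controls and 5, 5 and 0 in KO, with 3 (33.3%) in more KO and 4 (44.4%) in more control libraries. The coactivator gene Ppargc1a was called in 2 libraries of each genotype. Of 14 other genes of the chain, its carriers and channels, 6 had a peak, 2 (33.3%) in more KO and 4 (66.7%) in more control libraries. The outer membrane channel Vdac1 was called in 3 controls and 1 KO library (3.12 to 13.8), and cytochrome c, Cycs, in KO 2 alone.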

How the data were processed

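m1A immunoprecipitation and input libraries were made from caudate putamen RNA, 3 of each per genotype (12 samples). Per the submitters' processing notes, cutadapt 2.8, HISAT2 2.1.0, MACS2 2.2.6 and GRCm38 were used. Per the file headers, the authors called peaks library by library, pull-down over matching input, with q-values of at most 0.01 and no pooling. The deposited lists give pileup, a signal (tag coverage at the summit), −log10 of the p-value and q-value, and fold enrichment, a ratio to local background. These were used only within a list.

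Summits were placed in spans of a GRCm38.p6 RefSeq table with Python 3.11.15 and pandas 2.3.3, counting every gene that held them. Starts and strands came from the RefSeq promoter table. Exons, strand of reads and transcript abundance were not analysed here. Full values were given for members called in at least 4 libraries, or in at least 2 of one genotype and none of the other. The values of 1 member are not reported here by name, though it is in the counts. Members and lists were chosen with earlier results of these data known. The per-gene test was tested on simulated data. Alternatives were −log10 q of at least 5, fold of at least 4, equal list lengths, any overlap, 1 gene per summit, a replicate block and leaving out libraries. Control and KO libraries of the same number showed correlations of −0.0335, −0.0473 and 0.0344 in their deviations from group means, so the numbers were not taken as pairs.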

Additional observations from a re-analysis of the deposited data

How the results depend on the processing

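Of 144 alternative values, 129 stayed close to the main one (within the spread between libraries, or within 1.5 times for counts). None was reversed in sign, but only differences between the genotypes could be. Counts and percents of summits cannot change sign, and a main difference of 0, as in complex IV, was never labelled so. The exact permutation test per gene, with a smallest p of 0.1, could give only 0 genes past 0.05 in any setting. The complex IV difference, 0, ranged from -0.5 to 0.5 without 1 library. The complex I difference, 5, was 2.33 with lists of equal length, 2.83 without KO 2 and 2.5 without control 1 and KO 2, each without overlap. These values were labelled close because the spread between libraries took in KO 2 (SD of 3.79 in KO, n = 3). The KO minus control difference in members with a peak, 8.67, was 4.67 with lists of equal length. After the data were seen, 2 more settings were added: 5.33 without summits at gene ends and 0.667 with start summits only, and in these 3 settings the groups overlapped. Leaving out 1 library gave 7.33 to 10.3. The difference in share, 0.266 percentage points, was 0.112 at a −log10 q of at least 5, where the groups overlapped, as they did with summits in 1 gene only. Leaving out 1 library gave 0.204 to 0.336. Members called in more KO libraries, 22, numbered 14 without control 1 and KO 2, 18 to 25 without 1 library, and 37 as merged sites (added later). Those called in more control libraries, 3, numbered 6 with lists of equal length, 5 without control 1 and KO 2, 5 to 8 without 1 library (8 without control 1, where shares of libraries replaced numbers) and 9 as merged sites. The replicate block gave 0 genes past 0.05, as did the exact permutation test without it and the test on numbers of summits, with 0 genes at an unadjusted p under 0.05. A gene without a peak may lie below what these depths could call.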

Other observations

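A peak in any library was found in 39.8% of the 88 members, beside 26.3% of all protein-coding genes, 32.6% of 89 cytosolic ribosomal protein genes, 27.5% of 40 proteasome genes and 17.9% of 78 mitochondrial ribosomal protein genes. The mitochondrial ribosome, whose products translate the partner subunits, gave 7, 4 and 5 in controls and 5, 3 and 4 in KO, with 4 genes in more KO and 8 in more control libraries. The ribosomal list by symbol pattern alone held 101 genes, S6 kinases among them, of which 35.6% had a peak, and genes whose products are not ribosomal proteins were taken out after the data were seen. None of these differences between lists was tested.

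In KO 2, end summits made up 44% of placed summits in cytosolic ribosomal protein genes, beside 27.1% in the other 5 libraries together, and 47.4% beside 10.7% in the oxidative phosphorylation genes. In the assembly factors KO 2 had no end summit among 9.

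Cell type markers were counted beside the members. Astrocyte markers gave 1, 4 and 4 of 12 in controls and 4, 4 and 4 in KO, oligodendrocyte markers 1, 7 and 6 of 12 and 7, 5 and 5. Microglial markers gave 0, 0 and 2 of 10 and 1, 3 and 0, endothelial markers 1, 2 and 0 of 6 and 1, 1 and 1. Choroid plexus markers gave 0, 1 and 1 of 5 and 1, 3 and 0, and cortical excitatory markers 1, 2 and 2 of 6 and 1, 2 and 1. The ranges of the genotypes overlapped or touched in each list, and their part in the members' counts was not tested.

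Of 19 non-protein-coding genes matching the same symbols 2 had a peak, both pseudogenes. They were Cox5b-ps in 4 libraries and Ndufa12-ps in KO 1 and KO 2 (9.02 and 7.71), while Ndufa12 itself had none.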
